A study of Mus musculus with 10 samples.

Results

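Pigment cell transcripts were followed through RNA libraries of lymphatic endothelial cells (LEC, which form the wall of lymphatic vessels) that had been sorted from mouse melanomas. The set comprised 10 of the 23510 genes in the deposited table, each matched by its symbol to a single row: Dct, Tyrp1, Tyr, Pmel, Mlana, Slc45a2, Mitf, Sox10, Kit and Ret. Fragments of MT-ret melanoma were implanted on the flank of C57BL/6N mice. The mice then received, into the peritoneum, either IgG or an antibody against angiopoietin-2 (anti-Ang2), which neutralises a ligand that endothelium secretes for its receptor Tie2, and were killed 12 h later. Each treatment had 5 mice with 1 library per mouse, made from 0.5 ng of RNA of cells sorted by flow cytometry. Both groups carried the same tumour. MT-ret stands for a ret oncogene driven by a metallothionein promoter, and whether transcripts of that transgene count toward the mouse Ret row is not given in the sources used here. The sorting markers are not given there either.

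Melanin is made in melanosomes, organelles of melanocytes and of pigmented melanoma cells. Tyrosinase (Tyr) carries out the rate-limiting oxidation of tyrosine, and the related enzymes encoded by Dct and Tyrp1 act on later intermediates. Pmel forms the fibrils on which melanin is laid down, Mlana is a small membrane protein of early melanosomes, and Slc45a2 is a transporter of the melanosome membrane. Mitf is the transcription factor that drives many of these genes, Sox10 is a neural crest factor upstream of Mitf, and Kit and Ret are receptor tyrosine kinases for stem cell factor and for the GDNF family of ligands. Kit is also a defining receptor of mast cells. None of the 10 genes is a textbook marker of LEC.

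Transcripts of the 3 related enzyme genes moved together across the libraries, as did those of Mitf and Slc45a2. Whether upstream sequence has a part in this was not tested. The upstream regions of the 3 enzyme genes are shown as a description. Each is the stretch of 250 bases before the RefSeq start on GRCm38.p6, given 5′ to 3′ on the strand of the gene, with TCATGTG or its reverse complement CACATGA in capitals. These letters are those of the M-box, a sequence that Mitf is known to bind. Dct lies upstream at chr14:118052247-118052496 on the minus strand, Tyrp1 at chr4:80833963-80834212 on the plus strand and Tyr at chr7:87493513-87493762 on the minus strand.
Dct: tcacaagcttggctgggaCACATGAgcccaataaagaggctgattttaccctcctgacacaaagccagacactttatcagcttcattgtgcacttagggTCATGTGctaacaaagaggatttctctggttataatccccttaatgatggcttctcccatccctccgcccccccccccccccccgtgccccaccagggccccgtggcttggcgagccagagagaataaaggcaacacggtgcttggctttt
Tyrp1: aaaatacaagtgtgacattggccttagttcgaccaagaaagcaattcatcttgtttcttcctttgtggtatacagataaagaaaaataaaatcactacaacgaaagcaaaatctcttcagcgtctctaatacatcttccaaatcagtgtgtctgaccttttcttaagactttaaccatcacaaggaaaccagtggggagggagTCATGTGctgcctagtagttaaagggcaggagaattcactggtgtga
Tyr: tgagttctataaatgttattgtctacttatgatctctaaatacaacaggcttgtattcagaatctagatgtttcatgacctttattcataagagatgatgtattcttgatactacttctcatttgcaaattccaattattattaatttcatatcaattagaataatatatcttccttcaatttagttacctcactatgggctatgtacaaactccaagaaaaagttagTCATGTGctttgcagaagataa
TCATGTG began at -151 in Dct, -47 in Tyrp1 and -22 in Tyr, where -1 is the base before the start, and CACATGA began at -232 in Dct. Searched on either strand, TCATGTG was held by 3.77% of 32851 RefSeq windows of 300 bases (250 before and 50 from the start), and CATGTG, which is part of it, by 14.2%. RefSeq windows were matched for 5 members. Those of Mitf and Kit held neither motif. CACGTG, held by 7.15% of all windows, was found in none of the 8 windows of members, and ACAAAG, held by 18.7%, was found in those of Dct and Tyrp1. A match of letters is a description and not a measured binding site. Pmel, Mlana, Slc45a2, Sox10 and Ret were matched by name only.

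On mm10 with GENCODE release M21, Dct (ENSMUSG00000022129.3) spans chr14:118012790-118052244 on the minus strand with 9 merged exons, Tyrp1 (ENSMUSG00000005994.14) chr4:80834123-80851719 on the plus strand with 8, and Tyr (ENSMUSG00000004651.6) chr7:87424771-87493512 on the minus strand with 6. Pmel (ENSMUSG00000025359.9) lies at chr10:128704195-128720238, Mlana (ENSMUSG00000024806.3) at chr19:29697824-29708634 and Slc45a2 (ENSMUSG00000022243.10) at chr15:11000721-11029233, all on the plus strand. Mitf (ENSMUSG00000035158.15) lies at chr6:97807052-98021349 and Kit (ENSMUSG00000005672.12) at chr5:75574916-75656722 on the plus strand, Sox10 (ENSMUSG00000033006.9) at chr15:79154908-79165240 and Ret (ENSMUSG00000030110.13) at chr6:118151745-118197718 on the minus strand. All are protein-coding, and the values below count reads over whole genes. Pmel exons overlap exons of Dgka and Cdk2 on the opposite strand, and the cDNA kit does not mark strand, so reads in the overlaps cannot be told apart. Cdk2 had 81.2 ± 11.9 (SD, n = 5) CPM (counts scaled to library size) with IgG and 95.1 ± 13.3 CPM (n = 5) with anti-Ang2, and Dgka had 54.4 ± 4.76 and 46.3 ± 8.63 CPM (n = 5 each). Neither passed the test (edgeR adjusted p = 0.377 and 0.371). No other member has overlapping exons.

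Libraries held 38090933 to 83850341 counts over genes, and 19201 to 21215 genes had at least 1 count. The LEC label was checked against 8 lymphatic markers, whose summed level ran from 16904 to 19967 CPM with IgG and from 13629 to 18769 CPM with anti-Ang2. Prox1, the transcription factor that defines lymphatic identity, had 1283 ± 90.4 and 1161 ± 149 CPM (SD, n = 5 each). Anti-Ang2 5 and anti-Ang2 4 stood apart from the other libraries on principal components and had the lowest quality weights (0.417 and 0.606, against 0.911 to 1.43), so counts of calls are given with and without them.

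All 10 members were detected in all 10 libraries, passed the filter on low counts and had a higher fitted level after anti-Ang2, with a median log2 fold change of 1.75. Over all 16240 tested genes, 52% had a log2 fold change above 0 and the median was 0.01. Only 2 members rose at an adjusted p under 0.05, Kit and Pmel, where 1.34% of tested genes did. None fell, where 2.8% of tested genes did. At an unadjusted p under 0.05, 9 members were higher (all but Ret), where 9.14% of tested genes were. The groups did not overlap for 1 member, Kit, and 2.34% of tested genes had all anti-Ang2 libraries above all IgG libraries. The spread within each treatment was wide: Dct ranged 7.20-fold among IgG and 5.14-fold among anti-Ang2 libraries. In bulk RNA of sorted cells, fewer cells of a type and less RNA per cell cannot be told apart. CPM below are scaled by TMM, and fold changes are those of edgeR's quasi-likelihood test with Benjamini-Hochberg adjustment over all tested genes.

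**Figure D1:**
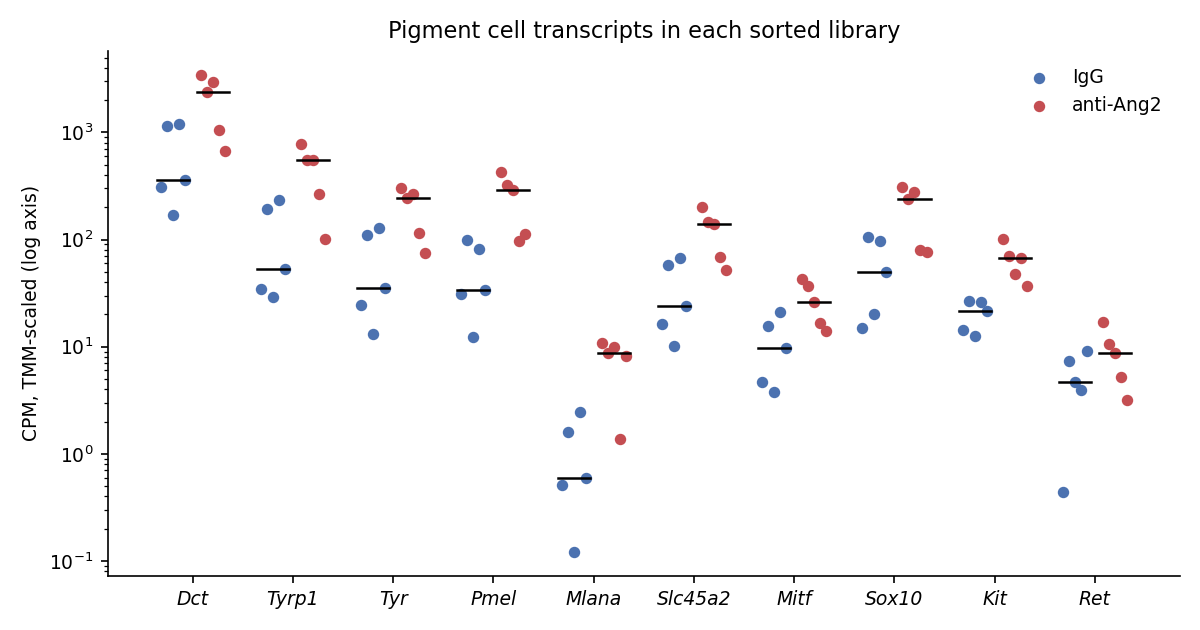
Level of each pigment cell transcript in CPM (log axis) in every library, with IgG in blue and anti-Ang2 in red; points within a group stand in library order 1 to 5 and black lines are medians. The 5 anti-Ang2 libraries lie above all IgG libraries for Kit, from 37.2 CPM upward, and the groups overlap for the other members.

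Dct, the most abundant member, gave the clearest view of the order of libraries. It had 309, 1153, 168, 1208 and 359.5 CPM in IgG 1 to 5, from 12715, 95532, 6905, 50287 and 14057 counts. In anti-Ang2 1 to 5 it had 3468, 2398, 2973, 1052 and 674 CPM, from 179668, 115357, 154775, 55194 and 26420 counts. Anti-Ang2 1, 2 and 3 were above every IgG library, while anti-Ang2 4 and 5 fell between the 2 high IgG libraries (2 and 4) and the 3 low ones. The mean over IgG libraries was 639.6 ± 499 CPM and that over anti-Ang2 libraries 2113 ± 1210 CPM (SD, n = 5 each), a log2 fold change of 1.72 ± 0.60 (SE) that did not pass (adjusted p = 0.143). By FPKM, which divides by gene length, Dct ranked 306, 43, 688, 35 and 273 among all genes of IgG 1 to 5. In anti-Ang2 1 to 5 it ranked 5, 14, 9, 45 and 99, so that in anti-Ang2 1 the mRNA of a melanin enzyme stood among the most abundant of a lymphatic endothelial sort.

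Tyrp1, the enzyme that stabilises tyrosinase and acts late in eumelanin synthesis, had 34.6, 193, 29.3, 235 and 53.7 CPM in IgG 1 to 5. The anti-Ang2 libraries had 779, 549, 556, 264 and 100.2 CPM in the same order. Here 4 anti-Ang2 libraries exceeded every IgG library and anti-Ang2 5 lay below IgG 2 and 4. Its log2 fold change was 2.04 ± 0.68 (adjusted p = 0.126). Tyr itself had 24.5, 110.4, 13.2, 128 and 35.3 CPM in IgG 1 to 5 and 303, 247, 265, 115 and 75.2 CPM in anti-Ang2 1 to 5. As for Dct, anti-Ang2 1, 2 and 3 were on top and anti-Ang2 4 and 5 lay within the IgG range. The log2 fold change of Tyr was 1.69 ± 0.61 (adjusted p = 0.159).

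Pmel, the fibril protein, had 30.9, 98.8, 12.4, 81.4 and 33.5 CPM in IgG 1 to 5. After anti-Ang2 it had 429.7, 321, 290.2, 97.0 and 113 CPM in libraries 1 to 5. Anti-Ang2 4 lay just under IgG 2, and the other 4 were above all IgG libraries. Pmel rose from 51.4 ± 36.8 to 250.3 ± 142 CPM (SD, n = 5 each), a log2 fold change of 2.28 ± 0.57 with an adjusted p of 0.0496, at the edge of the threshold. It passed in 3 of 10 fits that each left out 1 library, over which its adjusted p ranged from 0.0398 to 0.119. Without IgG 1, 3, 4 or 5 or without anti-Ang2 1, 2 or 3 it missed the threshold.

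Mlana, the melanosome member with the lowest mean FPKM in both groups, had 0.511, 1.59, 0.121, 2.47 and 0.588 CPM in IgG 1 to 5, from 21, 132, 5, 103 and 23 counts. In anti-Ang2 1 to 5 it had 10.8, 8.71, 9.95, 1.37 and 8.22 CPM, from 557, 419, 518, 72 and 322 counts. Anti-Ang2 4 fell within the IgG range and far from its own group, while anti-Ang2 5, the lowest of its group for the other melanosome genes except Pmel, was close to anti-Ang2 1, 2 and 3. Mlana had the largest log2 fold change of the 10 members, 2.87 ± 0.73, and narrowly missed the threshold (adjusted p = 0.0514). With only 5 counts in IgG 3 its lowest value carries wide counting error. Slc45a2, the transporter, had 16.4, 58.1, 10.0, 68.0 and 23.9 CPM in IgG 1 to 5 and 201, 146, 140.5, 69.3 and 51.8 CPM in anti-Ang2 1 to 5. Anti-Ang2 5 lay below IgG 2 and 4, and anti-Ang2 4 exceeded IgG 4 by a small margin. Its log2 fold change was 1.79 ± 0.54 (adjusted p = 0.0915).

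Summed over these 6 melanosome genes, the transcripts took 0.0424%, 0.160%, 0.0230%, 0.174% and 0.0485% of all counts in IgG 1 to 5. The anti-Ang2 libraries 1 to 5 gave 0.526%, 0.349%, 0.426%, 0.166% and 0.105%. The libraries thus fell into 3 runs: IgG 1, 3 and 5 were low, IgG 2 and 4 with anti-Ang2 4 and 5 were intermediate, and anti-Ang2 1, 2 and 3 were high. The sum averaged 899 ± 711 CPM with IgG and 3144 ± 1771 CPM with anti-Ang2 (SD, n = 5 each), a ratio of the means of 3.50. No test was made on the sum, since the genes were chosen with results known.

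Among the lineage regulators, Mitf had 4.65, 15.4, 3.74, 20.9 and 9.80 CPM in IgG 1 to 5. Its values in anti-Ang2 1 to 5 were 43.2, 37.0, 25.9, 16.6 and 14.0 CPM. The 3 high libraries were again anti-Ang2 1, 2 and 3, but their margin over the highest IgG library was smaller than for the enzymes. Mitf had a log2 fold change of 1.32 ± 0.48 (adjusted p = 0.161). Sox10 had 15.1, 104.5, 20.1, 96.0 and 49.95 CPM in IgG 1 to 5 and 308, 237, 279.9, 80.4 and 77.1 CPM in anti-Ang2 1 to 5. Anti-Ang2 4 and 5 were below IgG 2 and 4 for Sox10. Its log2 fold change was 1.78 ± 0.59 (adjusted p = 0.123). Per length, Sox10 was well above Mitf: in anti-Ang2 1 the deposited FPKM were 119 and 7.32, and in IgG 3 they were 7.56 and 0.617.

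Kit, the receptor for stem cell factor, had 14.4, 26.7, 12.7, 26.3 and 21.3 CPM in IgG 1 to 5, from 590, 2212, 523, 1094 and 833 counts. In anti-Ang2 1 to 5 it had 100.3, 70.8, 47.7, 67.1 and 37.2 CPM, from 5195, 3406, 2483, 3518 and 1457 counts. Its groups did not overlap, and anti-Ang2 4, intermediate for the melanosome genes, was above anti-Ang2 3 for Kit. Kit rose from 20.3 ± 6.53 to 64.6 ± 24.3 CPM (SD, n = 5 each), a log2 fold change of 1.67 ± 0.29 (adjusted p = 0.00781). It passed in 10 of 10 fits that left out 1 library, with adjusted p between 0.00552 and 0.0241. When the mean log2 CPM of the 6 melanosome genes was entered as a covariate, the log2 fold change of Kit was 0.91 ± 0.30 and did not pass (adjusted p = 0.269). In that fit 0.0308% of all tested genes were called higher. The covariate itself differs between treatments and has r = 0.899 with Kit, so part of the difference is taken out by construction.

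Ret, the receptor whose activated form drives the tumour model, had 0.438, 7.29, 4.64, 3.96 and 9.16 CPM in IgG 1 to 5, from 18, 604, 191, 165 and 358 counts. With anti-Ang2, libraries 1 to 5 had 16.9, 10.7, 8.78, 5.18 and 3.19 CPM, from 875, 513, 457, 272 and 125 counts. Anti-Ang2 1 and 2 were above all IgG libraries, anti-Ang2 5 was below 4 of them, and IgG 1 lay far below the rest. Its log2 fold change of 0.81 ± 0.63 was the smallest of the 10 and did not pass (adjusted p = 0.564). Ret also had the lowest mean FPKM of the members in both groups, and its FPKM ran from 0.0685 to 2.62, beside 75.9 to 1609 FPKM for Dct.

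**Figure D2:**
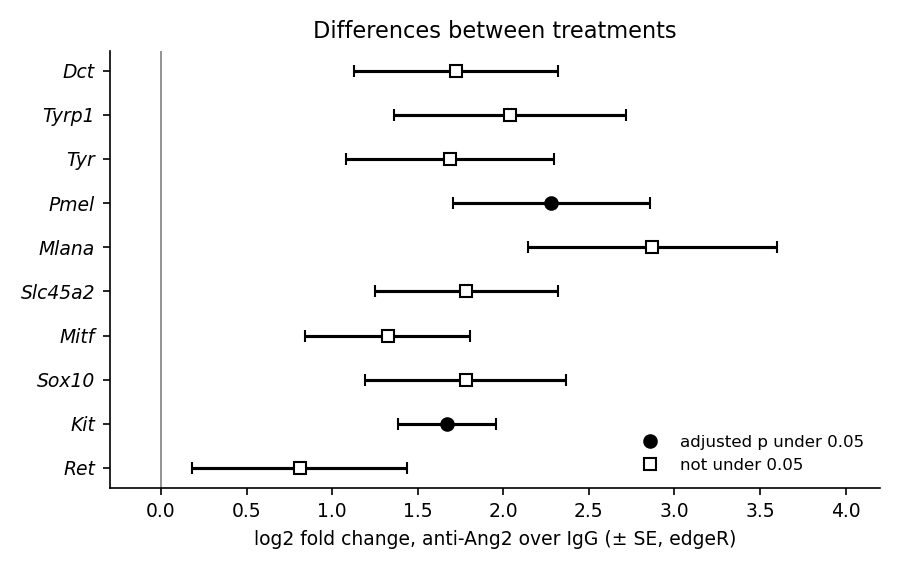
Log2 fold change of anti-Ang2 over IgG for each member (points) with its standard error (bars) from the edgeR fit over all genes; filled circles passed an adjusted p of 0.05 and open squares did not. All 10 points lie above 0, and the standard error of Kit (0.29) is the smallest.

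The number of members called depended on the test and on the libraries kept. The authors' deposited table gives 6 members an adjusted p under 0.05 with a higher level after anti-Ang2 (Tyrp1 0.0365, Pmel 0.00269, Mlana 0.000476, Slc45a2 0.0249, Mitf 0.0380 and Kit 3.776e-07), where 4.25% of its genes with an adjusted p were called higher. A DESeq2 fit called 8 members higher, all but Tyr and Ret, where it called 5.46% of genes higher. Limma-voom with quality weights, which gives anti-Ang2 4 and 5 less weight, called 9, all but Ret, where it called 4.13% of genes higher. Without anti-Ang2 4 and 5 the edgeR test called 5 members higher, Kit, Mlana, Pmel, Slc45a2 and Sox10, where it called 3.1% of genes higher. These libraries had the lowest melanosome sums of their group, 1599 and 1023 CPM, beside 3670 to 5192 CPM in the others. Leaving them out or giving them less weight thus favours a higher fitted level after anti-Ang2. Without the filter on low counts the edgeR test on all libraries called Kit alone, where it called 0.66% of genes higher. Scaled by library totals without TMM it called Kit, Mlana and Pmel, where 255 genes were called higher. Filtered at a CPM of at least 1 in 5 libraries it called the same members, where 285 genes were called higher. Kit was called in each of these fits and Ret in none.

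The members were then compared for how far they moved together, using log2 CPM over the 10 libraries. Pearson's r had a median of 0.919 over the 45 pairs of members, and Spearman's rho had a median of 0.903. A total of 40 pairs passed by r and 38 by rho in a two-sided permutation test with 100000 resamples and Benjamini-Hochberg adjustment over the 45 pairs. Libraries were shuffled without regard to treatment, and the genes were chosen with results known, so these p-values are descriptive. The same count was not made for pairs of other genes. The 28 pairs that involved neither Kit nor Ret all passed (r 0.849 to 0.995, largest adjusted p = 0.00338). The closest pair was Tyr and Slc45a2 (r = 0.995, rho = 0.976, permutation p = 1e-05 and 2e-05; r = 0.988 without the 2 libraries farthest from the median), followed by Dct and Tyr (r = 0.994, rho = 0.988, permutation p = 1e-05 and 2e-05; r = 0.995 without the 2 farthest). The p of 1e-05 is the smallest that these permutations can give. Mitf and Sox10 had r = 0.970 and rho = 0.939 (permutation p = 3e-05 and 0.00017; r = 0.934 without the 2 farthest).

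Most pairs also moved together within the treatments. After the mean of each treatment was removed, the median r of the 45 pairs was 0.860 (0.229 to 0.995), and that of the 15 melanosome pairs was 0.965 (0.679 to 0.995). Leaving out the 2 libraries farthest from the median gave a median r of 0.843 over all pairs. The first principal component of the 10 members held 89.7% of their variance. Because the libraries fell into 3 runs with gaps between them, a pooled r also reflects the spacing of these runs, and no run held the 6 libraries needed for an r of its own.

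**Figure D3:**
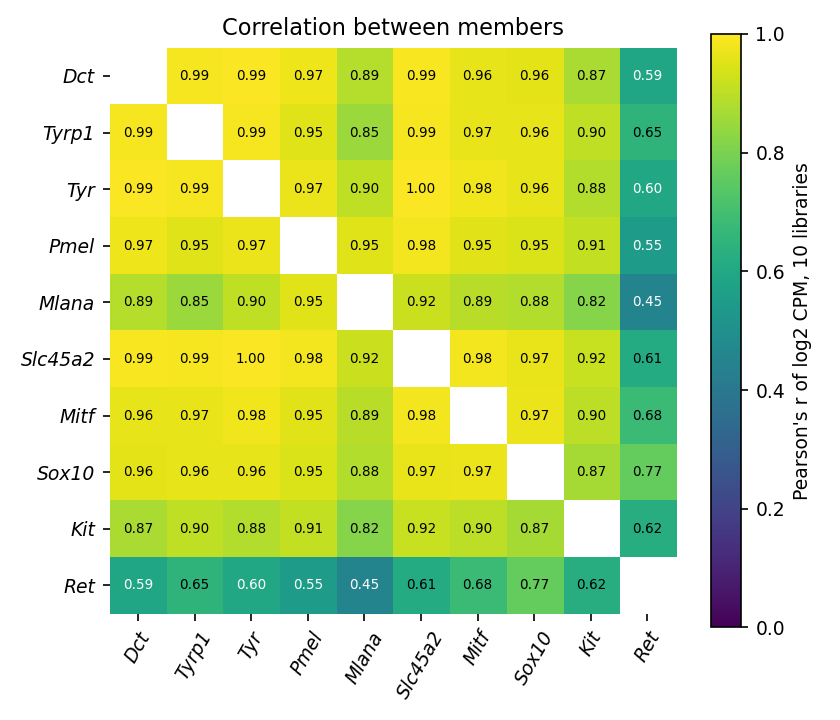
Pearson's r of log2 CPM over the 10 libraries for each pair of members, from 0 (dark) to 1 (yellow). The 8 genes other than Kit and Ret form a block at 0.849 or above, and the row of Ret is the lowest, from 0.45 with Mlana to 0.77 with Sox10.

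Over all 10 libraries Kit followed the others less closely and Ret least. The 9 pairs with Kit had a median r of 0.885 (0.624 to 0.917), which fell to 0.778 after removing treatment means. The 9 pairs with Ret had a median r of 0.614, and 4 of them passed by r and 2 by rho. Ret was closest to Sox10 (r = 0.765, rho = 0.709, permutation p = 0.00409 and 0.0269; r = 0.633 without the 2 libraries farthest from the median) and farthest from Mlana (r = 0.450, rho = 0.539, permutation p = 0.194 and 0.115). The IgG libraries set Ret apart. IgG 1 had 18 counts. IgG 3 and IgG 5, both in the low run for the melanosome genes, had 4.64 and 9.16 CPM, above the 3.96 CPM of IgG 4. The anti-Ang2 libraries ranked nearly alike by Ret and by Dct, with only libraries 2 and 3 changing places. For Kit the intermediate run split by treatment: IgG 2 and 4 had 26.7 and 26.3 CPM, and anti-Ang2 4 and 5 had 67.1 and 37.2 CPM. The mean log2 CPM of the melanosome genes was alike in these libraries (6.29 to 6.48). The melanosome sum of anti-Ang2 5 was lower, at 1023 CPM, beside 1599 to 1723 CPM in the rest of the run.

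**Figure D4:**
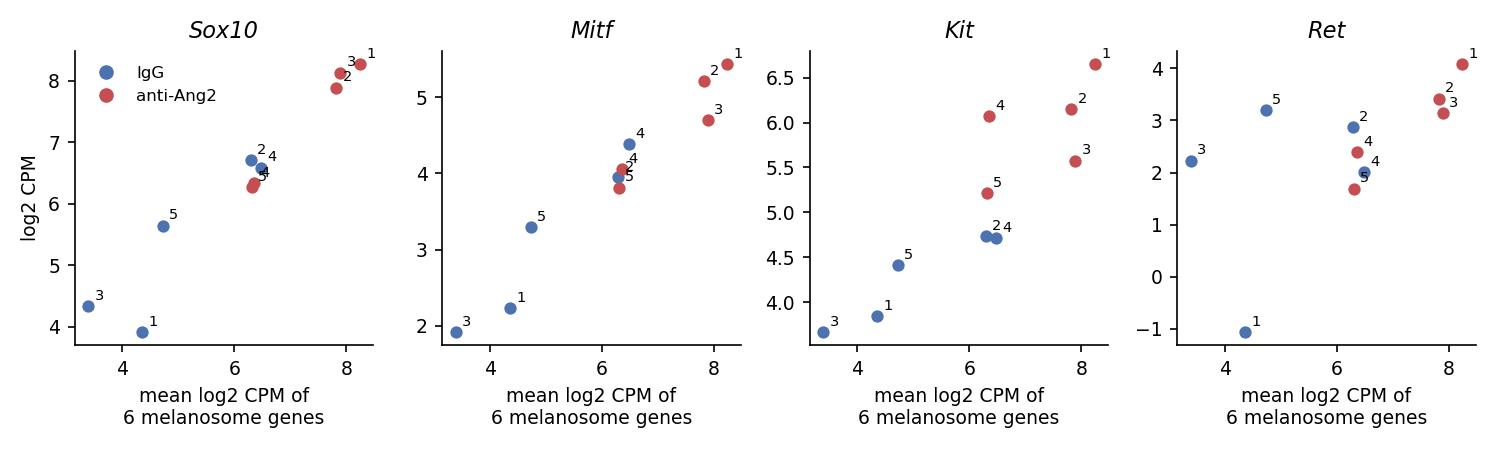
Log2 CPM of Sox10, Mitf, Kit and Ret against the mean log2 CPM of the 6 melanosome genes, with numbers giving the library within its treatment (IgG blue, anti-Ang2 red). Sox10 and Mitf rise along a narrow band (r with the mean of 0.964 and 0.973), Kit is higher in anti-Ang2 4 and 5 than in IgG 2 and 4 at a similar mean, and Ret scatters (r = 0.582).

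The mix of melanosome transcripts was then compared at low and high totals. Dct made up 65.3% to 74.3% of the summed counts of the 6 melanosome genes, Tyrp1 8.31% to 16.5%, Tyr 5.68% to 7.42%, Pmel 4.72% to 11.1%, Slc45a2 3.32% to 5.07% and Mlana 0.0522% to 0.803%. The share of Dct averaged 71.8 ± 1.59% with IgG and 66.8 ± 1.97% with anti-Ang2 (SD, n = 5 each). It was highest in IgG 1, at 74.3% (95% Wilson interval 73.7% to 75.0%), and lowest in anti-Ang2 2, at 65.3% (65.1% to 65.6%). These intervals cover counting error only, since reads carry no molecular identifiers. The ranges touched, with 70.1% in IgG 4 and 70.2% in anti-Ang2 3. On the FPKM scale the mean share of Dct over libraries was 74.5%, beside 69.3% in counts.

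The spread of each member relative to Dct was set beside the spread of its level. The standard deviation over the 10 libraries of the log2 ratio to Dct was 0.18 for Tyr, 0.21 for Slc45a2, 0.35 for Tyrp1 and 0.40 for Pmel, beside 1.53, 1.41, 1.71 and 1.63 for their log2 CPM. For Sox10 it was 0.42 beside 1.49, and for Mitf 0.47 beside 1.16. Each of these genes thus varied less against Dct than in level, Tyr and Slc45a2 least. Mlana (1.09 beside 2.10) and Kit (0.77 beside 1.001) held them less, and Ret (1.32 beside 1.41) hardly at all.

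Single libraries show this. Per 100 counts of Dct, Kit had 4.64, 2.32, 7.57, 2.18 and 5.93 counts in IgG 1 to 5 and 2.89, 2.95, 1.60, 6.37 and 5.51 in anti-Ang2 1 to 5. Dct is the denominator and varied more than Kit, so a lower ratio at high Dct follows from how the ratio is built. Ret had 0.142, 0.632, 2.77, 0.328 and 2.55 counts per 100 of Dct in IgG 1 to 5, and 0.487, 0.445, 0.295, 0.493 and 0.473 in anti-Ang2 1 to 5. The anti-Ang2 libraries were close to each other for Ret and the IgG libraries were not. Mlana reached 1.22 counts per 100 of Dct in anti-Ang2 5, against 0.0724 to 0.363 in the other 9 libraries. By a two-sided exact permutation test over the 252 arrangements of 5 against 5 libraries, none of the 9 ratios to Dct passed after adjustment over the 9. The smallest p this test allows is 0.00794, so a single ratio could not have passed the adjustment even with groups that did not overlap. Pmel and Mlana came closest, at a mean difference in log2 ratio of 0.53 and 1.31 (exact p = 0.0397 each, adjusted 0.179).

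**Figure D5:**
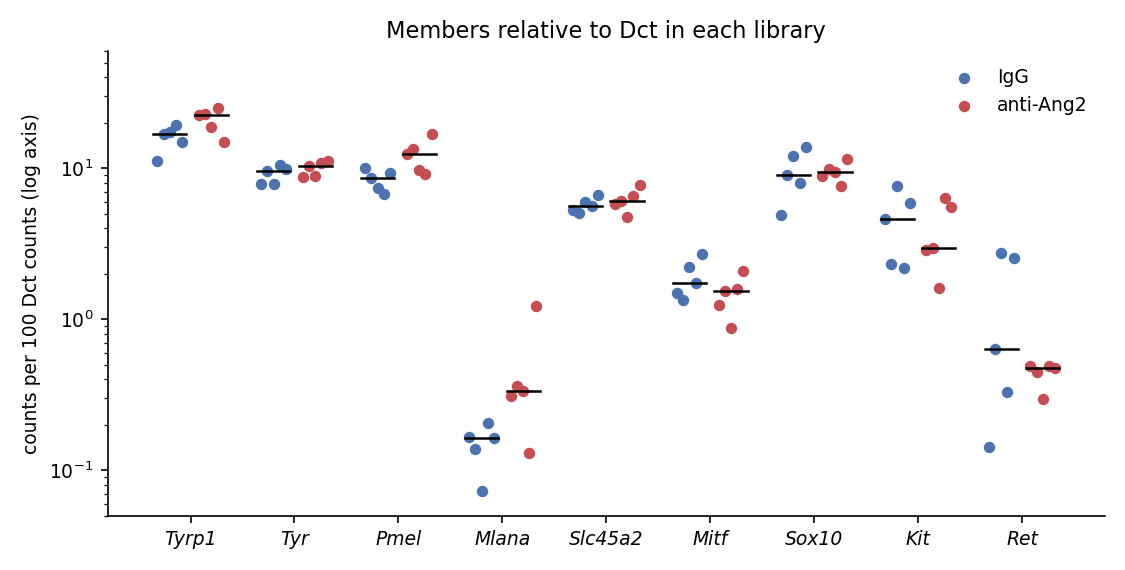
Counts of each member per 100 counts of Dct in every library (log axis), with IgG in blue, anti-Ang2 in red and medians as black lines. Tyr and Slc45a2 keep within 1.41-fold and 1.63-fold over the 10 libraries, while Mlana ranges 15.3-fold and Ret 19.1-fold.

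All tested genes were ranked by Pearson's r of their log2 CPM with the mean log2 CPM of the 6 melanosome genes over the 10 libraries, as a description. Slc45a2, Tyr, Pmel, Dct and Tyrp1, which enter the mean, ranked 1, 5, 6, 10 and 27, while Mlana ranked 104. Of the members outside the mean, Mitf ranked 30 (r = 0.973), Sox10 59 (0.964), Kit 216 (0.899) and Ret 1873 (0.582) of 16240 genes. An r of at least 0.95 was reached by 90 genes, and the median over all genes was -0.0027. The 10 closest genes outside the set were Mc1r (r = 0.995), the melanocortin receptor of melanocytes, Prrx1 (0.993), a homeobox factor, Syt4 (0.992), a synaptotagmin, Gpnmb (0.990), a melanosomal glycoprotein also made by macrophages, Kcnn4 (0.990), a potassium channel, Rab3b (0.990), a GTPase of secretory vesicles, Ldhb (0.986), a lactate dehydrogenase subunit, Emp3 (0.986), a membrane protein, Dclk1 (0.985), a kinase, and Bmpr1a (0.985), a BMP receptor. Their log2 fold changes ran from 1.52 for Dclk1 to 1.955 for Gpnmb. The melanosome mean itself differs between treatments, so these fold changes follow in part from choosing genes by r over all libraries. Of these 10 only Emp3 passed (log2 fold change 1.61, adjusted p = 0.0447), and it missed the threshold in 7 of 10 fits that left out 1 library (0.0245 to 0.108 over the 10). Over all tested genes 1.34% were called higher.

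Other genes of melanosome formation were measured as a list of 31, from the transporters Oca2 and Slc24a5 to the trafficking complexes of the Hps genes. None passed in either direction, 10 were higher at an unadjusted p under 0.05, and their median log2 fold change was 0.40, beside 0.01 over all genes. Over all tested genes 1.34% rose and 2.8% fell by adjusted p, and 9.14% were higher at an unadjusted p under 0.05. Of these 31, 6 had an r of at least 0.9 with the melanosome mean, among them Gpnmb, at 418 ± 293 CPM with IgG and 1621 ± 879 CPM with anti-Ang2 (SD, n = 5 each; adjusted p = 0.0770). An r of at least 0.9 was reached by 214 of all 16240 tested genes. The widely expressed adaptor subunit Ap3d1 had 129.9 ± 17.2 and 131 ± 13.6 CPM. Genes of the neural crest and melanocyte lineage other than the members numbered 26, of which 21 were tested. Their median log2 fold change was 1.31, and 11 were higher at an unadjusted p under 0.05. By adjusted p, 1 rose and 1 fell. Pou3f2, a POU factor of melanoma and neural cells, rose from 0.0295 ± 0.0435 to 0.514 ± 0.195 CPM (adjusted p = 0.0368), with 3 libraries at 0, so that its log2 fold change of 3.84 depends on the prior count. It met the filter on low counts only through the anti-Ang2 libraries, where it was high. Without that filter Pou3f2 missed the threshold (edgeR adjusted p = 0.0825), and with it passed in 1 of 10 fits that left out 1 library. Ednrb, an endothelin receptor of melanoblasts that endothelium also makes, fell, with 683 ± 209 CPM in IgG against 322 ± 91.5 CPM after treatment (-1.08 ± 0.23 on the log2 scale, adjusted p = 0.0251; 4 of 10 such fits), and its r with the melanosome mean was -0.513.

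Signalling partners of the receptors were counted as lists. Of 20 tested genes of the Kit pathway none rose and 2 fell, the adaptor Shc1 (log2 fold change -0.66 ± 0.10, adjusted p = 0.00320) and the phosphoinositide 3-kinase subunit Pik3r1 (-0.68 ± 0.11, adjusted p = 0.00710). Over all tested genes 1.34% rose and 2.8% fell. The median of the list was -0.02. Kitl, the ligand of Kit, averaged 16.3 ± 5.79 CPM with IgG and 24.1 ± 9.23 CPM with anti-Ang2 (adjusted p = 0.411). Of 12 tested genes of the Ret pathway 1 rose, the co-receptor Gfra1, at 7.96 ± 4.18 CPM with IgG and 23.5 ± 8.45 CPM with anti-Ang2 (1.56 ± 0.38 on the log2 scale, adjusted p = 0.0439), and none fell. Gfra1 passed in 2 of 10 fits that left out 1 library. Its r with the melanosome mean was 0.962, above that of Ret itself. The median of this list was -0.12.

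Markers of other cells were summed in CPM beside the members, since Kit, Sox10 and others are not exclusive to pigment cells. Of 12 mast cell markers 5 were in the table. Tpsb2 and Fcer1a were at 0 in 9 libraries each, and the summed level, 171 to 225 CPM with IgG and 129.7 to 149.9 CPM with anti-Ang2, was mostly Gata2 (182 ± 25.7 and 137 ± 8.47 CPM), followed by Hdc and Il1rl1. The Schwann cell sum was 90.2 to 134 CPM and 55.3 to 146 CPM, mostly L1cam, followed by Cdh19 and Egr2. The sum had r = 0.249 with the melanosome mean. Its genes differed: Cdh19 had 11.2 ± 8.44 and 30.5 ± 16.1 CPM (r = 0.868), while r was -0.274 for L1cam, -0.279 for Prx and 0.056 for Egr2. None of the 7 tested Schwann cell genes passed. The part of these cells in the levels of Kit and Sox10 was not tested.

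The pericyte sum ranged from 60.6 to 238 CPM with IgG and from 153 to 441 CPM with anti-Ang2. It had r = 0.908 with the melanosome mean, and 4 anti-Ang2 libraries were above all IgG libraries. Its most abundant gene was Cspg4, a proteoglycan that melanoma cells also make (r = 0.976 with the melanosome mean), followed by Kcnj8 and Acta2. The potassium channel gene Kcnj8 rose (1.41 ± 0.23 on the log2 scale, adjusted p = 0.00545; 10 of 10 fits that left out 1 library). Rgs5, Pdgfrb and Notch3 had log2 fold changes of -1.25, -0.80 and -2.67 and did not pass. The part of pericytes in the members' levels was not tested. The macrophage and monocyte sum, led by Lyz2, Mrc1 and Cd68, was 52.2 to 233 CPM and 79.4 to 294 CPM (r = 0.419 with the melanosome mean). Its IgG maximum came from IgG 1, and the next highest IgG library had 84.8 CPM. Of 13 tested genes in this list none passed, and 12 had a log2 fold change above 0, as did 52% of all tested genes. The median of the list was 1.42, beside 0.01 over all tested genes. The part of macrophages in the members' levels was not tested. The fibroblast sum, led by Dcn, Thy1 and Col3a1, was 305 to 1004 CPM and 313 to 819 CPM (r = 0.112). The T cell sum, led by Lck, Cd2 and Cd3e, was 23.6 to 34.4 CPM and 12.2 to 24.4 CPM, the keratinocyte sum (Krt10, Lor and Krt5) 1.26 to 4.99 CPM and 1.25 to 2.69 CPM, and the erythroid sum (Hbb-bs, Hba-a1 and Alas2) 1.06 to 12.1 CPM and 1.05 to 3.98 CPM.

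Over all 10 libraries, endothelial marker sums were negatively correlated with the melanosome mean. The pan-endothelial sum, led by Pecam1, Tie1 and Kdr, ranged from 4819.7 to 6387 CPM with IgG and from 3680.1 to 4434 CPM with anti-Ang2. Its r with the melanosome mean was -0.703. All 5 anti-Ang2 libraries lay below all IgG libraries for this sum, so its pooled r also reflects the difference between treatments. An r within treatments was not computed for the marker sums. The lymphatic sum, led by Mmrn1, Lyve1 and Flt4, had an r of -0.721. Lyve1 itself had 4655 ± 337 and 5646 ± 764 CPM and an r of 0.322. Of the 8 genes in each of these lists, 4 pan-endothelial and 2 lymphatic genes fell by adjusted p and none rose. Over all tested genes 2.8% fell and 1.34% rose. The part of the pigment cell transcripts in these differences was not tested.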

How the data were processed

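RNA of sorted LEC was sequenced in 10 libraries, 5 per treatment, grouped by the treatment label. The series states independent mice, so the spread includes that between mice. Per the submitters' processing notes, STAR, featureCounts and DESeq2 were used on mm10; versions, annotation release and strand setting are not given in the sources used here.

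Per the file headers, the authors deposited raw counts per gene, which entered every test. The deposited FPKM served to compare genes of different length. The deposited TPM sum to more per library than TPM can and were treated as a relative score, used as an alternative scaling. The authors' deposited log2 fold changes and p-values were printed only where named, and the deposited baseMean, a signal of scaled counts, was not analysed. There were 0 unused columns of sample values.

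EdgeR 4.0.16 in R 4.3.3 was run as a two-sided quasi-likelihood test (TMM, filterByExpr at a count of 10 and a total of 15) on all 10 libraries, and 16240 genes were tested. The call threshold was an adjusted p (Benjamini-Hochberg) of 0.05. The SE of an edgeR fold change was derived from the test, as the absolute log2 fold change divided by the square root of its F statistic. Log2 CPM used a prior count of 2, and ratios to Dct added 0.5 to each count. Alternatives were DESeq2 1.42.0, limma 3.58.1 (voom with quality weights), other scalings and filters, the replicate number as a block and leaving out libraries; the melanosome covariate, the joint removal of anti-Ang2 4 and 5 and the permutation test of the ratios were added after seeing the data. The fits were tested on simulated data. Permutations used numpy 2.4.6 in Python 3.11.15 with pandas 2.3.3. Ranks and Wilson intervals came from scipy 1.17.1. Of the rows, 23435 matched GENCODE M21 by unversioned ID. Protein sequences were not used here.

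The members, gene lists and markers were chosen with earlier results of these data known. Named were every member, the 10 other genes closest to the melanosome mean, the called genes of each pathway list (up to 6) and the 3 most abundant of each marker list. Gpnmb, Ap3d1, Kitl, Cdk2, Dgka, Prox1, Prx, Rgs5, Pdgfrb, Notch3 and the defining mast cell markers at 0 were named beside this rule.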

Additional observations from a re-analysis of the deposited data

Results flagged for a closer look

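Each treatment's 5 values were checked for a library far from the rest, for the CPM of each member, the melanosome sum and the log2 ratio of each other member to Dct, 40 groups in all, and 2 stood out by Dixon's criterion; chance alone gives about 1 in 20 groups. The level of Mlana in anti-Ang2 4 was 1.37 CPM, the lowest of its group, where the other 4 libraries had 8.22 to 10.8 CPM. The log2 ratio of Ret to Dct in anti-Ang2 3 was -8.40, where the other 4 anti-Ang2 libraries had -7.81 to -7.66.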

How the results depend on the processing

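The number of members called higher was 2 with edgeR, 8 with DESeq2, 9 with limma-voom and quality weights, 1 without the filter on low counts (Kit; Pmel had an adjusted p of 0.0644), 5 without anti-Ang2 4 and 5 (chosen after seeing the data) and 1 to 3 when 1 library was left out; none was called lower in any of these fits. With library totals in place of TMM, and with a filter of at least 1 CPM in 5 libraries, 3 members were called higher (Kit, Mlana and Pmel). Mlana had an edgeR adjusted p of 0.04996 and 0.0390 in these fits. Median-ratio scaling called 2, Kit and Pmel. Over all genes, 217 were called higher and 454 lower with edgeR, 810 and 880 with DESeq2, 670 and 780 with limma-voom, 531 higher without anti-Ang2 4 and 5, and 82 to 326 higher and 259 to 468 lower when 1 library was left out. The replicate numbers share no animal, and deviations of same-numbered libraries did not correlate (r -0.125 to 0.113, none highest with its own number); with the replicate number as a block, 1 member (Kit) and 82 genes were called higher and 268 lower. With the melanosome mean as a covariate, also added after seeing the data, the log2 fold change was -0.26 ± 0.25 for Mitf (edgeR adjusted p = 0.753). It was -0.21 ± 0.34 for Sox10 (0.857) and -0.30 ± 1.02 for Ret (0.935). Each lay below 0 by about its SE or less, so a change of direction is not shown. The covariate follows Mitf (r = 0.973) and Sox10 (r = 0.964) and differs between treatments, so part of their difference is taken out by construction. The share of Dct in the melanosome sum was 69.3% in counts and 74.5% in FPKM or the deposited TPM, which divide by length. The median r over the 45 pairs stayed between 0.890 and 0.963, and 36 to 44 pairs passed, when 1 library was left out. Among the members' fold changes under all alternatives, 151 kept direction and side of the threshold, 20 crossed into a call and 10 lost a call. The other 3 changed sign, those of Mitf, Sox10 and Ret in the covariate fit. Depth does not limit the abundant members; Mlana in IgG 3 (5 counts) and Ret in IgG 1 (18 counts) are limited by counting error.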
